A study of Mus musculus with 24 samples.

Results

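The genes described are 37 that build the peroxisome or carry out its oxidation and lipid reactions. They were chosen by name, as array probes other than controls whose gene name equals a listed symbol. No measured value entered this rule, but the list was written with earlier results of these data known. All 37 were on the array, and the probe representing each was well above background on all 24 arrays, so all 37 were among the 21331 genes tested. Together they have 71 probes, of which 66 passed the filter on dim probes, and 21 genes had more than 1 such probe.

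The series asks how the liver transcriptome responds to a β3 adrenergic agonist when hepatocytes have or lack the nuclear receptor PPARα. Its 24 mice, all C57Bl/6J males, form 4 groups of 6: LWT mice given vehicle, LWT mice given CL316243, LKO mice given vehicle and LKO mice given CL316243. LWT stands for mice with, and LKO for mice without, hepatocyte PPARα, read from the series title, since the labels give only the abbreviations. CL316243 activates the β3 adrenergic receptor, which is best known from fat cells, and was given at 3 mg/kg by gavage in 0.5% carboxymethyl cellulose. Vehicle mice received the carboxymethyl cellulose alone. All 4 groups ate standard chow freely, were dosed at Zeitgeber time (ZT) 10, where ZT counts hours from lights on, and were killed in the dark phase at ZT 16. The labels name neither the deleted piece of Ppara nor the Cre line, and cells other than hepatocytes keep the receptor by this description. Nothing in the labels says whether mice of a group shared a litter or cage, so the p-values measure the spread between these mice.

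Peroxisomes are small membrane-bound organelles that shorten very long and branched fatty acids, break down the hydrogen peroxide this makes, and take part in bile acid and ether lipid synthesis. Proteins called peroxins, the products of the Pex genes, insert membrane proteins, import enzymes from the cytosol and divide the organelle. In rodent liver, PPARα is the receptor through which peroxisome proliferator drugs increase these organelles, and several β-oxidation genes are textbook PPARα targets.

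A level is the log2 of the deposited processed intensity minus the array's own 75th percentile, so a level of 0 equals that percentile. Levels belong to a probe and were compared between groups for a gene, never between genes. A log2 change is a difference between group means of levels, and a gene was called when its limma p-value, adjusted by Benjamini-Hochberg over all 21331 genes, was under 0.05. In each comparison the share of all genes called is given as the background against which the count of members can be read. Counts of members whose ranges did not overlap have no such background, because the share over all genes was not computed. They describe the members only.

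Between 26985 and 34202 of 56605 probes per array were well above background, the 75th percentile of intensity was 397.4 to 577.7, and no spot was saturated. The median standard error of a difference between 2 groups was 0.13, and that of the interaction 0.19. The tissue label was checked against 8 hepatocyte markers, all well above background on all arrays. Their summed level was between 11.61 and 12.01 in every mouse. With CL316243, limma called 0 of the 8 in LWT mice, where 1 was higher at an unadjusted p under 0.05. In LKO mice 1, Apoa1, was called lower, and 3 were lower and 0 higher at an unadjusted limma p under 0.05. The probe for Ppara lies 2273 bases into its transcript and its level was 4.81 to 5.18 in LKO mice against 5.45 to 5.93 in LWT mice under vehicle. That difference, -0.68 (adjusted p = 0.158), was not called although the ranges did not overlap. Under CL316243 the level was 3.06 to 4.85 in LKO against 5.70 to 6.42 in LWT mice, a called difference of -1.91 (adjusted p = 3.60e-07). With CL316243 Ppara rose by 0.55 (adjusted p = 0.0377) in LWT mice and fell by 0.69 (adjusted p = 0.01) in LKO mice, an interaction of -1.23 (adjusted p = 0.012). Whether the probe lies in the deleted piece is not given, so it does not check the genotype.

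With CL316243, more of the peroxisomal genes rose than fell in LWT mice, and more fell than rose in LKO mice. In LWT mice 19 of the 37 rose (51.4%, against 18.9% of all genes tested) and 7 fell (18.9%, against 19.4%). The share that rose was above the background, whereas the share that fell was near it and is no result about these genes. The median log2 change was 0.30 over the 37 genes, from -0.54 to 3.98, and 0.01 over all genes. Of the 19 that rose, 18 had levels in all 6 CL316243 mice above all 6 vehicle mice.

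Among LKO mice 4 of the 37 rose (10.8%, against 20.9% of all genes) and 18 fell (48.6%, against 19.4%). The median log2 change was -0.25 over the 37 genes, from -1.09 to 0.68, and 0.03 over all genes. Of the 18 that fell, 12 had ranges that did not overlap between treatments. The difference between both effects, LKO minus LWT, was negative in 35 of the 37 genes, with a median of -0.45 against 0.03 over all genes. It was called for 16 of them as lower (43.2%, against 3.24% of all genes) and for 0 as higher (against 2.17%). At an unadjusted limma p under 0.05, 24 were lower and 0 higher.

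Read together, 4 genes (Pex11a, Eci2, Agps and Pxmp4) rose in both genotypes, and 5 (Pex3, Pex16, Pex19, Pex14 and Ehhadh) rose in LWT and fell in LKO mice. A further 10 rose in LWT mice and were not called in LKO mice. Another 7 were called lower in both genotypes by the probe that represents each, among them Acox3, whose other probes read otherwise and for which no direction is given here. A set of 6 fell in LKO mice while not called in LWT mice. The 5 called in neither were Pex26, Amacr, Nudt7, Nudt19 and Far1. The interaction uses the same arrays as the separate effects, so it is no independent measure of them. Within each of the 3 slides, which hold 2 mice of every group, all 26 genes called in LWT mice, all 22 called in LKO mice and all 16 with a called interaction kept their direction. The median interaction within slides was -0.64, -0.40 and -0.47. These genes were called on the same arrays, and the share over all called genes was not computed. Their kept direction is therefore no separate evidence.

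**Figure D1:**
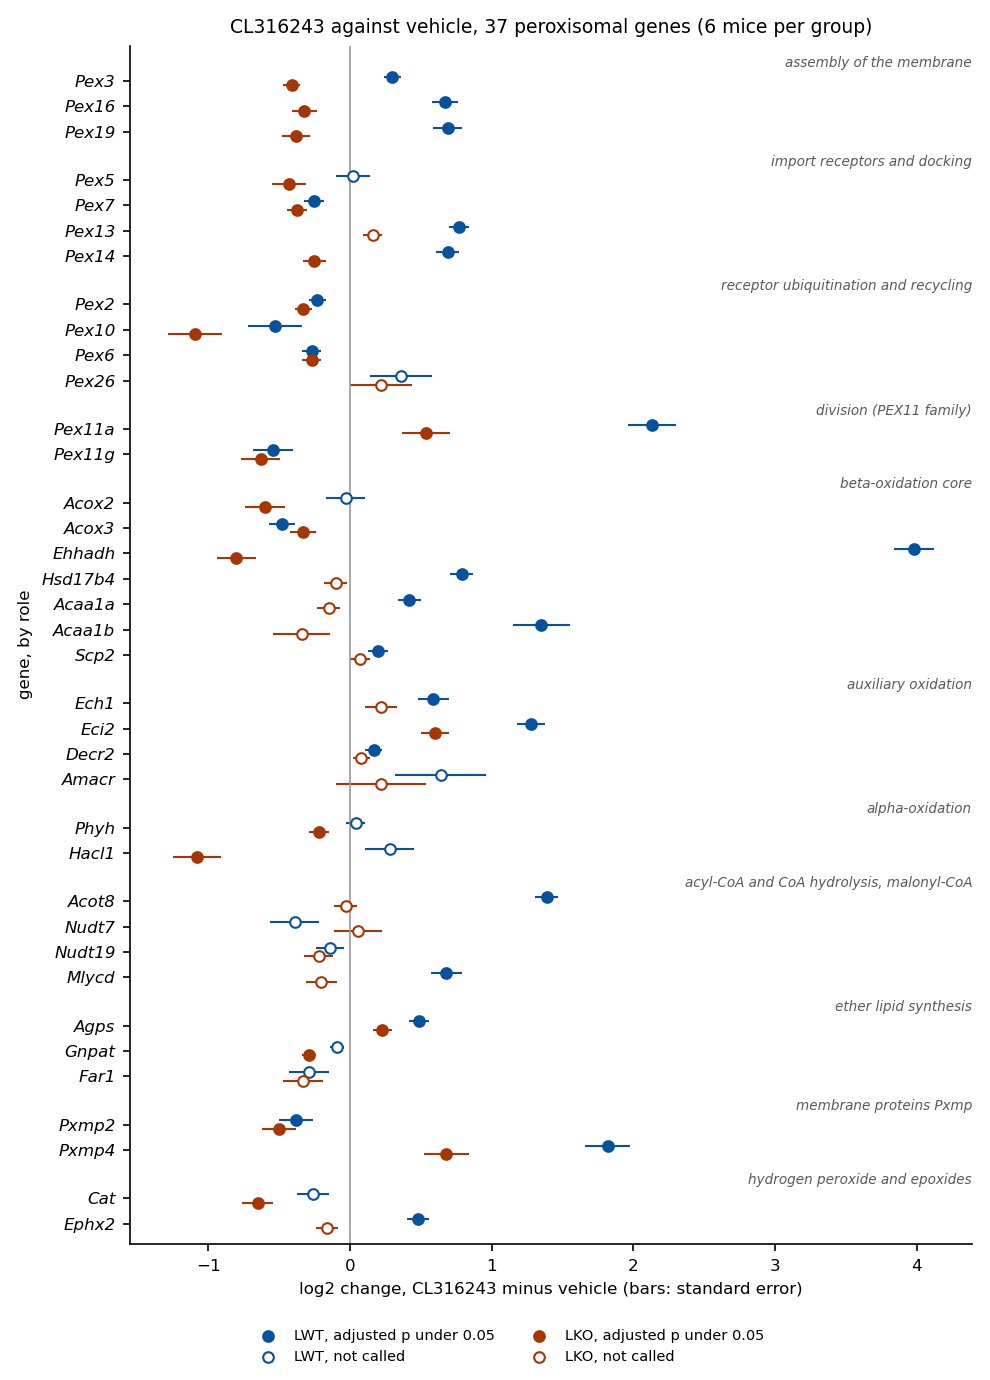
Log2 change with CL316243 (x axis, CL316243 minus vehicle) for each of the 37 genes (y axis, ordered by role) in LWT (blue) and LKO (brown) mice, with standard errors from the limma fit as bars and filled points for genes called at an adjusted p under 0.05. Ehhadh lies farthest right at 3.98 in LWT mice, and its LKO point at -0.80 is left of 0.

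The liver RNA also carried transcripts of other cells, and in bulk tissue fewer cells of a type and less RNA per cell cannot be told apart. The summed level of 6 neutrophil markers was 1.49 to 2.60 in LWT vehicle, 1.60 to 3.83 in LWT CL316243, 1.51 to 2.04 in LKO vehicle and 2.16 to 5.60 in LKO CL316243 mice. Of these markers 3 rose and 1 fell in LWT mice and 4 rose in LKO mice; Mpo was well above background on 16 of 24 arrays and Retnlg on 22, and the other 4 on all. The highest sum, 5.60, belonged to replicate 3 of the LKO CL316243 group. Without that mouse the counts of peroxisomal genes were 6 higher and 18 lower in LKO mice, and 16 lower for the interaction. Sums of 5 cholangiocyte markers were 1.87 to 2.69, 2.07 to 3.82, 1.81 to 2.74 and 2.82 to 3.82 in the same group order, with 1 of 5 called higher in LWT and 2 of 5 in LKO mice. Those of 5 adipocyte markers were 1.08 to 2.07, -0.04 to 1.14, 1.22 to 2.0 and 0.28 to 0.85, with 1 called lower in each genotype. That gene was Adrb3, the receptor of CL316243, at -2.10 (adjusted p = 1.47e-05) in LWT and -1.92 (adjusted p = 4.64e-05) in LKO mice. Lep (-0.06 and 0.18), Plin1 (-0.06 and -0.16), Retn (0.19 and 0.09) and Cfd (-0.98 and 0.29) were not called in either genotype. Of 6 Kupffer cell markers limma called 0, also at an unadjusted p under 0.05. The 4 lymphocyte markers tested had 2 lower in LWT and 1 higher and 2 lower in LKO mice, the 6 of liver endothelium 2 higher and 2 lower in LWT and 1 higher and 2 lower in LKO mice, and the 6 of stellate cells and fibroblasts 1 higher and 1 lower in LWT and 1 higher in LKO mice. Between genotypes, Cfd of the adipocyte list was lower in LKO mice under vehicle and under CL316243, and Elane of the neutrophil list was higher in LKO mice under CL316243. Their part in the results was not tested.

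The peroxins that place proteins in the peroxisomal membrane changed as a set of 3. Pex3 is the membrane anchor for the carrier Pex19, which brings newly made membrane proteins, and Pex16 helps recruit Pex3. All 3 rose in LWT mice (against 18.9% of all genes) and all 3 fell in LKO mice (against 19.4%). The interaction was called lower for all 3 (against 3.24%).

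Pex3 levels ran from 1.75 to 1.95 (median 1.87) in LWT vehicle mice and from 2.08 to 2.24 (median 2.15) with CL316243. In LKO mice they were 1.66 to 1.95 (median 1.79) under vehicle and 1.22 to 1.49 (median 1.40) with CL316243. The treated mice of one genotype were all above, and those of the other all below, their vehicle controls. The log2 changes were 0.30 (SE 0.06, adjusted p = 4.05e-04) and -0.41 (SE 0.06, adjusted p = 1.73e-05), and their difference was -0.70 (SE 0.08, adjusted p = 1.08e-05).

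Pex16 levels were 3.20 to 3.66 (median 3.46) in LWT vehicle and 3.83 to 4.25 (median 4.18) in LWT CL316243 mice. LKO mice had 2.97 to 3.14 (median 3.02) under vehicle and 2.44 to 3.03 (median 2.72) after the agonist. The LWT groups did not overlap and the LKO groups did. Pex16 changed by 0.67 (adjusted p = 8.91e-06) in LWT and by -0.32 (adjusted p = 0.00966) in LKO mice, an interaction of -0.98 (SE 0.13, adjusted p = 4.44e-05). A second Pex16 probe gave 0.69, -0.26 and -0.95.

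Pex19 went from 3.06 to 3.42 (median 3.31) under vehicle to 3.64 to 4.10 (median 4.01) under CL316243 in LWT mice. For LKO mice the ranges were 2.82 to 3.21 (median 3.07) and 2.37 to 2.94 (median 2.67). Again only the LWT ranges stood apart. Changes of 0.69 (adjusted p = 9.08e-06) and -0.38 (adjusted p = 0.00356) differed by -1.06 (SE 0.14, adjusted p = 2.51e-05), and the other Pex19 probe gave an interaction of -1.31.

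Import of matrix enzymes begins with the receptors Pex5 and Pex7, which bind the enzymes' targeting signals, and with Pex13 and Pex14, which dock the loaded receptors at the membrane. The docking pair rose in LWT mice, whereas neither receptor did.

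Pex13 levels in LWT mice were 3.11 to 3.28 (median 3.16) under vehicle and 3.71 to 4.11 (median 3.99) under CL316243. LKO levels were 3.07 to 3.22 (median 3.16) and 3.12 to 3.49 (median 3.28). Every treated LWT mouse exceeded every other mouse of the study for this gene. The change was 0.77 (1.70-fold, adjusted p = 3.61e-08) in LWT mice and 0.16 (adjusted p = 0.0828) in LKO mice, with an interaction of -0.61 (SE 0.10, adjusted p = 5.17e-04). Without replicate 3 of the LKO CL316243 group the LKO change was called (0.20, adjusted p = 0.035).

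Pex14 levels spanned 1.54 to 2.02 (median 1.69) in LWT vehicle and 2.14 to 2.61 (median 2.37) in LWT CL316243 mice. LKO vehicle mice had 1.42 to 1.73 (median 1.61) and LKO CL316243 mice 1.22 to 1.47 (median 1.35). Treated LWT mice were again above all others, and the LKO groups overlapped. Pex14 rose by 0.69 (adjusted p = 1.29e-06) in LWT mice and fell by 0.25 (adjusted p = 0.0186) in LKO mice, and the interaction was -0.94 (SE 0.12, adjusted p = 1.87e-05).

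Pex5, the receptor for most matrix enzymes, changed by 0.02 (adjusted p = 0.925) in LWT mice and fell by 0.43 (adjusted p = 0.0051) in LKO mice. Its interaction of -0.45 (adjusted p = 0.126) was not called. Pex7, the receptor for a smaller set that includes the thiolase, fell in both genotypes, by 0.25 (adjusted p = 0.00863) and by 0.37 (adjusted p = 3.16e-04).

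After unloading, Pex5 is ubiquitinated by a ligase complex that includes Pex2 and Pex10, and pulled out of the membrane by an ATPase pair, of which Pex6 is a part and Pex26 the anchor. None of these 4 rose in either genotype and none had a called interaction (1 was lower at an unadjusted limma p under 0.05). By the probe that represents each, 3 of the 4 were called lower in each genotype, against 19.4% of all genes in both. All 3 LWT calls, and those of Pex2 and Pex6 in LKO mice, were lost under some settings given below. The counts are therefore no result about the 4 genes as a group. Pex2 fell by 0.23 (adjusted p = 0.00552) in LWT and by 0.33 (adjusted p = 2.45e-04) in LKO mice. Pex6 fell by 0.27 in both (adjusted p = 0.00439 and 0.0037). With all probes of a gene averaged, neither Pex2 (-0.08, adjusted p = 0.363) nor Pex6 (-0.14, adjusted p = 0.2) was called in LWT mice, nor in LKO mice.

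Pex10 had the largest change of the 4. Its level was -1.85 to -1.51 (median -1.71) in LWT vehicle, -3.10 to -1.82 (median -2.03) in LWT CL316243, -1.74 to -1.18 (median -1.51) in LKO vehicle and -3.26 to -2.15 (median -2.54) in LKO CL316243 mice. Only the LKO groups stood apart. The change was -1.09 (SE 0.19, adjusted p = 1.00e-04) in LKO and -0.53 (SE 0.19, adjusted p = 0.0317) in LWT mice. Leaving out 1 of 5 mice ended the LWT call. Without replicate 1 of the LWT CL316243 group it was -0.35 (adjusted p = 0.0925), and without any of the other 4 the adjusted p was 0.0519 to 0.0724. It was 0.0619 with no filter on dim probes and 0.0543 with slide and row as a block. Pex26 changed by 0.36 (adjusted p = 0.214) in LWT and 0.22 (adjusted p = 0.452) in LKO mice.

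Members of the Pex11 family shape and divide peroxisomes, and the 2 measured here moved in opposite directions. Pex11a, the form known to be induced by peroxisome proliferators, rose 4.39-fold in LWT mice. Pex11g, another member of the family, fell in both genotypes.

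Pex11a levels were 5.65 to 6.66 (median 5.97) in LWT vehicle mice and 7.84 to 8.40 (median 8.23) in LWT CL316243 mice. LKO mice had 5.12 to 5.89 (median 5.64) and 5.62 to 6.53 (median 6.18). Treated LWT mice stood clear of all others, while treated and vehicle LKO mice overlapped. The log2 change was 2.13 (SE 0.17, adjusted p = 2.65e-09) in LWT and 0.54 (SE 0.17, adjusted p = 0.0138) in LKO mice, and the interaction -1.59 (SE 0.24, adjusted p = 1.54e-04). Pex11a was thus called higher in both genotypes, by different amounts. Pex11g changed by -0.54 (adjusted p = 0.0038) in LWT and -0.63 (adjusted p = 0.00111) in LKO mice, with an interaction of -0.09 (adjusted p = 0.873). The mean of its 4 probes was not called in LWT mice (-0.22, adjusted p = 0.0575).

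**Figure D2:**
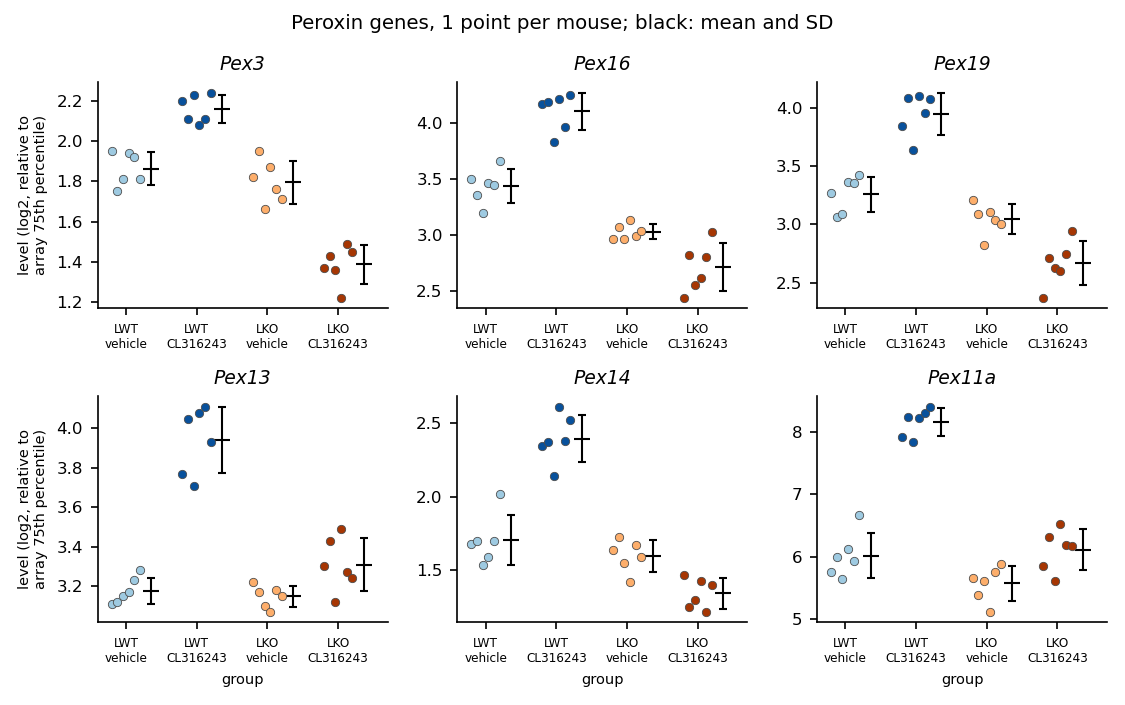
Levels (y axis, log2 relative to the array's 75th percentile, each panel with its own scale) of 6 peroxin genes in each mouse of the 4 groups (x axis), with the mean and SD of 6 mice in black. LWT mice given CL316243 are the highest group in all 6 panels, and Pex3 in LKO mice given CL316243 lies at 1.22 to 1.49, below every other mouse.

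The core of peroxisomal β-oxidation is a cycle of acyl-CoA oxidase, a bifunctional hydratase and dehydrogenase, and a thiolase. Of its 7 genes here 5 rose in LWT mice (71.4%, against 18.9% of all genes). In LKO mice 0 rose (against 20.9%), and limma gave 0 higher also at an unadjusted p under 0.05. The interaction was called lower for 4 (57.1%, against 3.24%). Called lower in LWT mice was 1 (14.3%, against 19.4%), Acox3. In LKO mice they were 3 (42.9%, against 19.4%), Ehhadh, Acox2 and Acox3. For Acox3 the probes disagree and no direction is given. With 7 genes, the 0 higher in LKO mice and the 1 lower in LWT mice are no result about the core. Ehhadh and Hsd17b4 encode the L- and D-bifunctional proteins, Acaa1a and Acaa1b the thiolases, Acox2 and Acox3 the oxidases of bile acid intermediates and branched acids, and Scp2 a thiolase and sterol carrier. The 120 bases before the RefSeq start (GRCm38.p6) of Ehhadh, which changed most, and of the thiolase pair are shown because these genes rose together in LWT mice. Capitals mark the box CCAAT, which stands on the opposite strand in all 3 and so reads ATTGG here.
Ehhadh, chr16:21787835-21787954, minus strand: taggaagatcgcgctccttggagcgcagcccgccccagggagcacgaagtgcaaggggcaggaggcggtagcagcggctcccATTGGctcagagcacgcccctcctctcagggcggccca
Acaa1a, chr9:119341174-119341293, plus strand: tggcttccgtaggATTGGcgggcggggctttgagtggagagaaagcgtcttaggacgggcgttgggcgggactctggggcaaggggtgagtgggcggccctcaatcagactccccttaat
Acaa1b, chr9:119157094-119157213, minus strand: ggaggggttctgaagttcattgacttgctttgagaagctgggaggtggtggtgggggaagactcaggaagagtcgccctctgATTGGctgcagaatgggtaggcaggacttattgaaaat

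That box ends 33 bases before the start in Ehhadh and in Acaa1b and 102 bases before it in Acaa1a, and it was looked for after the sequences had been read. CCAAT on either strand was present in this window in 10 of 36 promoters of the 31 matched members (27.8%), and in 6994 of all 32851 promoters (21.3%). The 2 thiolase promoters shared no run longer than 8 bases over the 250 before the start and had the same base at 78 of 250 positions (31.2%). The sequence AGGTCA, which is the receptor half-site, was absent on both strands from these 250 bases in all 3 genes. It was found in 3 of 36 member promoters (8.33%) and in 4607 of all promoters (14%). Absence says only that the letters are not in this window.

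Ehhadh had the largest change of the 37 in LWT mice. Its probe lies at chr16:21761914-21761973 in the array's older build, mm9, 2394 bases into the transcript NM_023737. Levels were 3.18 to 3.80 (median 3.64) in LWT vehicle mice and 7.20 to 7.84 (median 7.71) in LWT CL316243 mice. LKO mice had 3.58 to 4.18 (median 3.90) under vehicle and 2.83 to 3.42 (median 3.06) under CL316243. Neither genotype's treatment groups overlapped, and they moved in opposite directions. The change was 15.7-fold in LWT mice (log2 3.98, SE 0.14, adjusted p = 3.35e-15) and 0.576-fold in LKO mice (log2 -0.80, SE 0.14, adjusted p = 8.42e-05). The interaction was -4.77 (SE 0.19, adjusted p = 2.30e-13).

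Hsd17b4 was low in LKO mice before treatment and unlike Ehhadh changed little there. LWT levels were 5.95 to 6.20 (median 6.10) under vehicle and 6.64 to 7.0 (median 6.94) with the agonist. LKO levels were 4.98 to 5.31 (median 5.23) and 4.92 to 5.32 (median 5.07). The LWT groups were apart and the LKO groups were superimposed. The log2 change was 0.79 (adjusted p = 1.67e-07) in LWT and -0.10 (adjusted p = 0.337) in LKO mice, giving an interaction of -0.90 (SE 0.12, adjusted p = 2.97e-05).

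Both thiolase genes rose in LWT mice, and neither was called in LKO mice by the probe that represents it. Acaa1b levels were 5.79 to 6.23 (median 6.00) and 6.51 to 7.87 (median 7.51) in LWT mice, and 5.04 to 5.86 (median 5.51) and 4.60 to 5.60 (median 5.21) in LKO mice, vehicle first. Acaa1a levels were 7.09 to 7.26 (median 7.17) and 7.26 to 7.74 (median 7.68) in LWT mice, and 6.74 to 7.09 (median 6.89) and 6.56 to 6.88 (median 6.80) in LKO mice. For each gene the LWT groups were apart, by a narrow gap for Acaa1a, and the LKO groups overlapped.

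Acaa1b changed by 1.35 (SE 0.20, adjusted p = 1.58e-05) in LWT and -0.34 (adjusted p = 0.178) in LKO mice, an interaction of -1.69 (SE 0.28, adjusted p = 5.15e-04). Acaa1a changed by 0.42 (SE 0.08, adjusted p = 2.24e-04) and -0.15 (adjusted p = 0.132), an interaction of -0.58 (SE 0.11, adjusted p = 0.00276). A second Acaa1a probe gave 1.13 and -0.65, an interaction of -1.78. Acaa1a was called lower in LKO mice with the mean of its probes (-0.40, adjusted p = 0.00143) and with quantile normalization (-0.20, adjusted p = 0.0428). The 2 genes are near-identical copies, so a probe may bind the transcript of both and the amounts assigned to each are uncertain.

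Scp2 changed by 0.20 (adjusted p = 0.0204) in LWT and 0.07 (adjusted p = 0.395) in LKO mice. Its LWT call was lost with quantile normalization (0.06, adjusted p = 0.377), with the authors' series table (0.05, adjusted p = 0.429), with no filter on dim probes (adjusted p = 0.0587) and without replicate 1 of the LWT CL316243 group (0.17, adjusted p = 0.0543). Acox2 changed by -0.03 (adjusted p = 0.902) in LWT mice and fell by 0.60 (adjusted p = 0.00151) in LKO mice, with an interaction of -0.57 (adjusted p = 0.0979) that was not called. Averaging its 2 probes gave -0.91 (adjusted p = 0.00805). Acox3 fell by 0.48 (adjusted p = 3.19e-04) and by 0.33 (adjusted p = 0.00824), but its other 3 probes read -0.15, -0.08 and 0.11 in LWT and 0.24, 0.20 and 0.49 in LKO mice. The mean of its 4 probes was not called in LWT mice and in LKO mice turned to 0.15 (adjusted p = 0.103), so no direction is given for Acox3.

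**Figure D3:**
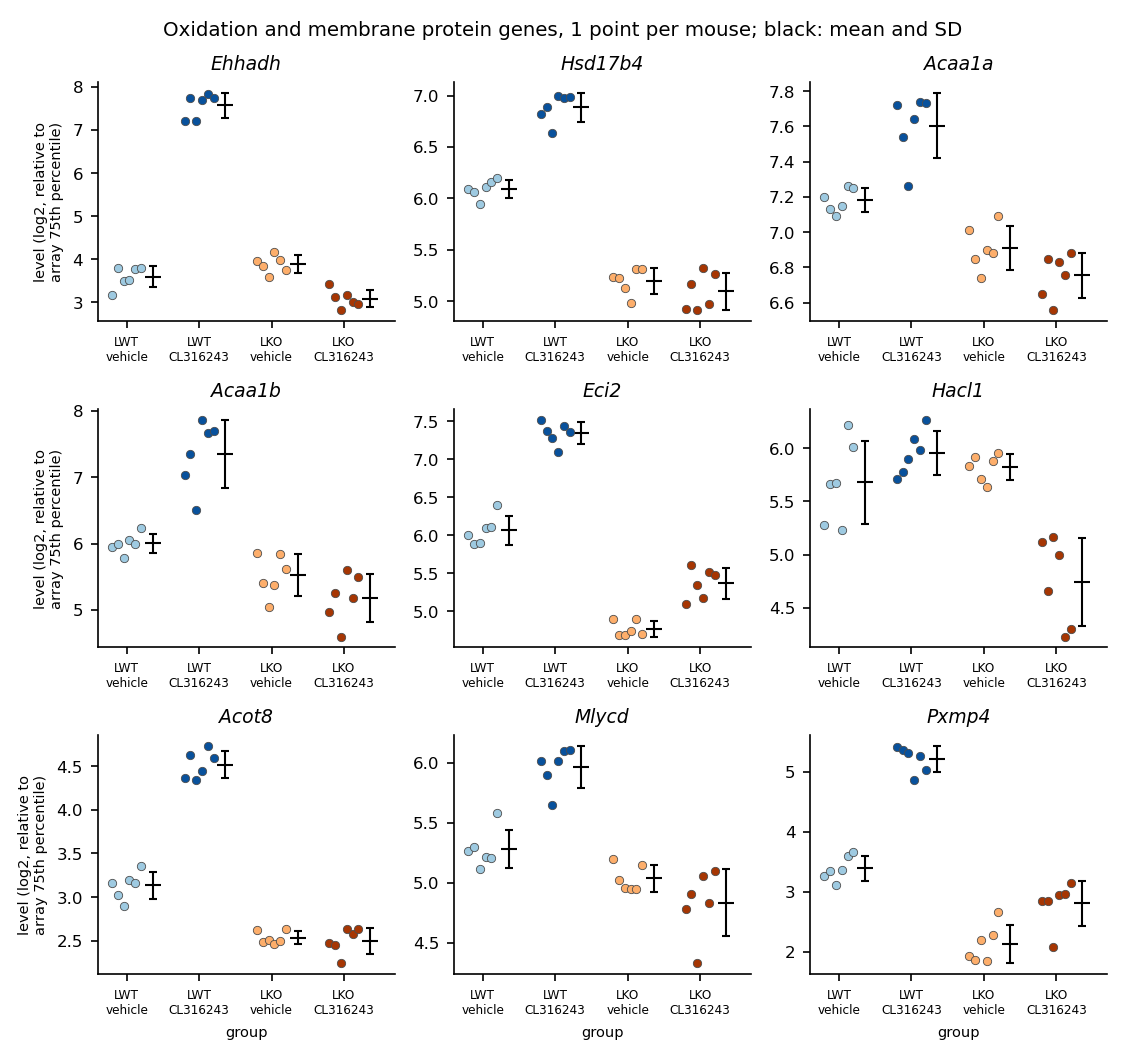
Levels (y axis, log2 relative to the array's 75th percentile, each panel with its own scale) of 9 genes of oxidation, acyl-CoA hydrolysis and the peroxisomal membrane in each mouse of the 4 groups (x axis), with the mean and SD of 6 mice in black. Ehhadh in LWT mice given CL316243 lies at 7.20 to 7.84 and all other mice at 4.18 or below, whereas Hacl1 stands apart only in LKO mice given CL316243, at 4.23 to 5.17.

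The auxiliary enzymes prepare unsaturated or branched chains for the cycle. Of the 4 here, 3 rose in LWT mice (against 18.9% of all genes). One of these calls, that of Decr2, was lost under settings given below. In LKO mice 1 rose (against 20.9%), and none fell in either genotype (against 19.4% in both). With 4 genes, the 1 higher in LKO mice and the absence of falls are no result about this role. Eci2 encodes an enoyl-CoA isomerase, Ech1 a dienoyl-CoA isomerase, Decr2 the peroxisomal dienoyl-CoA reductase and Amacr a racemase for branched acids.

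Eci2 levels were 5.88 to 6.40 (median 6.05) in LWT vehicle mice and 7.09 to 7.52 (median 7.36) with CL316243. LKO vehicle mice had 4.68 to 4.90 (median 4.72) and LKO CL316243 mice 5.09 to 5.60 (median 5.40). All 4 groups were apart from one another, and LKO CL316243 mice were below LWT vehicle mice. Eci2 rose by 1.28 (SE 0.10, adjusted p = 1.32e-09) in LWT and by 0.60 (SE 0.10, adjusted p = 4.87e-05) in LKO mice, with an interaction of -0.68 (SE 0.14, adjusted p = 0.00342). A second Eci2 probe gave 1.51, 0.46 and -1.05.

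Ech1 showed a like order of groups with a smaller change. Its levels were 5.03 to 5.44 (median 5.28) and 5.63 to 5.95 (median 5.89) in LWT mice, and 3.67 to 4.19 (median 4.01) and 3.87 to 4.51 (median 4.20) in LKO mice, vehicle first. The LWT groups did not overlap and the LKO groups did. Ech1 changed by 0.59 (adjusted p = 1.70e-04) in LWT and 0.22 (adjusted p = 0.11) in LKO mice, and the interaction of -0.37 (adjusted p = 0.185) was not called. Without replicate 3 of the LKO CL316243 group the LKO change was called (0.29, adjusted p = 0.0368).

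Decr2 changed by 0.17 (adjusted p = 0.0312) in LWT and 0.08 (adjusted p = 0.325) in LKO mice. That LWT call was lost with quantile normalization (0.08, adjusted p = 0.179), with the authors' series table (0.06, adjusted p = 0.363), with no filter on dim probes (adjusted p = 0.0872), with only the LWT groups in the fit (adjusted p = 0.0698) and on leaving out any 1 of 7 mice, with adjusted p values of 0.0526 to 0.0713. Those mice were replicates 1, 2, 5 and 6 of the LWT CL316243 group and 1, 2 and 3 of the LWT vehicle group. Amacr varied most between mice, from 4.47 to 6.94 in the LWT CL316243 group. Its change of 0.64 (SE 0.32, adjusted p = 0.115) was not called, and without replicate 4 of that group it was 0.96 (adjusted p = 0.00429).

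In α-oxidation, which removes 1 carbon from acids with a methyl branch, Phyh encodes the hydroxylase of phytanoyl-CoA and Hacl1 the lyase of the next step. Neither was called in LWT mice and both fell in LKO mice (against 19.4% of all genes). Hacl1 levels were 5.23 to 6.22 (median 5.67) and 5.71 to 6.27 (median 5.94) in LWT mice, and 5.64 to 5.96 (median 5.86) and 4.23 to 5.17 (median 4.83) in LKO mice, vehicle first. Treated LKO mice lay below every other mouse. Hacl1 changed by 0.28 (adjusted p = 0.219) in LWT and -1.08 (SE 0.17, adjusted p = 4.52e-05) in LKO mice, with an interaction of -1.36 (SE 0.24, adjusted p = 0.00126). The other Hacl1 probe gave 0.46, -1.60 and -2.06. Phyh changed by 0.04 (adjusted p = 0.709) and fell by 0.22 (adjusted p = 0.0169), with an interaction of -0.26 (adjusted p = 0.154). With only the LKO groups in the fit the fall of Phyh was not called (adjusted p = 0.0578).

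Peroxisomes also release free acids and trim coenzyme A. Acot8 encodes an acyl-CoA thioesterase, Mlycd the malonyl-CoA decarboxylase, which is also found in mitochondria and cytosol, and Nudt7 and Nudt19 coenzyme A diphosphatases. Acot8 and Mlycd rose in LWT mice, and neither was called in LKO mice by the probe that represents it.

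Acot8 levels were 2.90 to 3.36 (median 3.16) in LWT vehicle mice and 4.34 to 4.73 (median 4.52) under CL316243. LKO mice had 2.46 to 2.63 (median 2.5) and 2.24 to 2.63 (median 2.52). The LWT groups stood far apart and the LKO groups overlapped, with the treated range reaching lower. The change was 1.39 (SE 0.08, adjusted p = 5.48e-11) in LWT and -0.03 (SE 0.08, adjusted p = 0.799) in LKO mice, and the interaction -1.42 (SE 0.12, adjusted p = 5.13e-08).

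Mlycd levels were 5.12 to 5.58 (median 5.25) and 5.65 to 6.11 (median 6.02) in LWT mice, and 4.95 to 5.20 (median 4.99) and 4.33 to 5.10 (median 4.87) in LKO mice. Once more only the LWT groups were apart. Its changes were 0.68 (adjusted p = 4.04e-05) and -0.20 (adjusted p = 0.145), with an interaction of -0.89 (SE 0.15, adjusted p = 8.86e-04). With the mean of its probes Mlycd was called lower in LKO mice (-0.45, adjusted p = 0.00287). Nudt7 changed by -0.39 (adjusted p = 0.0796) in LWT and 0.06 (adjusted p = 0.811) in LKO mice. With quantile normalization (-0.47, adjusted p = 0.0177), the authors' series table (-0.49, adjusted p = 0.0132) or the mean of its 3 probes (-0.53, adjusted p = 0.00675) the LWT fall of Nudt7 was called, as with only the LWT groups in the fit (adjusted p = 0.0481). The same held without replicate 1 of the LWT CL316243 group (-0.49, adjusted p = 0.0285) or replicate 3 of the LKO CL316243 group (-0.39, adjusted p = 0.0429). Nudt19 changed by -0.14 (adjusted p = 0.276) in LWT and -0.22 (adjusted p = 0.0815) in LKO mice. Its LKO fall was called without replicate 1 (-0.25, adjusted p = 0.0494) or 2 (-0.27, adjusted p = 0.0349) of the LKO CL316243 group, and with normexp background correction (-0.24, adjusted p = 0.0475), quantile normalization (-0.26, adjusted p = 0.033) or the authors' series table (-0.25, adjusted p = 0.031).

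Ether lipid synthesis starts in the peroxisome with Gnpat, an acyltransferase, and Agps, which makes the ether bond, using fatty alcohol from Far1. None of the 3 had a called interaction by the probe that represents it, and 2 were lower at an unadjusted limma p under 0.05. Only 3.24% of all genes were called lower and 2.17% higher for the interaction, so the absence of calls is no result about these 3. Agps levels were 0.35 to 0.62 (median 0.44) and 0.83 to 1.11 (median 0.92) in LWT mice, and 0.23 to 0.56 (median 0.39) and 0.50 to 0.84 (median 0.58) in LKO mice, vehicle first. The LWT groups were apart and the LKO groups overlapped slightly. Agps rose by 0.49 (SE 0.07, adjusted p = 1.11e-05) in LWT and by 0.23 (SE 0.07, adjusted p = 0.0112) in LKO mice, with an interaction of -0.26 (adjusted p = 0.15). Gnpat changed by -0.09 (adjusted p = 0.154) in LWT mice and fell by 0.29 (adjusted p = 5.47e-05) in LKO mice. Its interaction was called with the mean of its probes (-0.37, adjusted p = 0.00445), and its LWT change with quantile normalization (-0.13, adjusted p = 0.0416). Far1 changed by -0.29 (adjusted p = 0.105) in LWT and -0.33 (adjusted p = 0.0564) in LKO mice, and leaving out 1 of 5 mice brought the latter to adjusted p values of 0.0248 to 0.0493. These were replicates 1 and 4 of the LKO CL316243, 2 of the LKO vehicle, and 2 and 4 of the LWT vehicle group. The LKO change in Far1 was also called with quantile normalization (-0.38, adjusted p = 0.0349) and with the stricter filter on dim probes (-0.33, adjusted p = 0.0478).

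Pxmp2 and Pxmp4 encode membrane proteins of the peroxisome, the first of them a channel, and they moved in opposite directions. Pxmp4 levels were 3.11 to 3.66 (median 3.35) and 4.86 to 5.42 (median 5.29) in LWT mice, and 1.84 to 2.67 (median 2.06) and 2.08 to 3.14 (median 2.90) in LKO mice. The LWT groups were apart, and the LKO groups overlapped through 1 treated mouse at 2.08, the next being at 2.85. Pxmp4 rose by 1.82 (SE 0.16, adjusted p = 1.64e-08) in LWT and by 0.68 (SE 0.16, adjusted p = 0.00193) in LKO mice, with an interaction of -1.14 (SE 0.23, adjusted p = 0.00336). A second Pxmp4 probe gave 0.90 and 1.04, an interaction of 0.13, and the mean of both was not called for it (-0.50, adjusted p = 0.154). Pxmp2 fell by 0.38 (adjusted p = 0.0149) in LWT and by 0.50 (adjusted p = 0.00203) in LKO mice.

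Catalase, encoded by Cat, breaks down hydrogen peroxide, and Ephx2 encodes the soluble epoxide hydrolase, found in peroxisomes and cytosol. Ephx2 levels were 7.75 to 8.24 (median 7.97) and 8.27 to 8.59 (median 8.47) in LWT mice, and 7.43 to 7.64 (median 7.55) and 7.20 to 7.66 (median 7.35) in LKO mice. Treated LWT mice were just above vehicle mice, and the LKO groups overlapped. Ephx2 changed by 0.48 (adjusted p = 9.63e-05) and -0.16 (adjusted p = 0.144), with an interaction of -0.64 (SE 0.12, adjusted p = 0.00166). Without replicate 6 of the LKO CL316243 group its LKO change was called (-0.21, adjusted p = 0.0438), as it was with quantile normalization (-0.24, adjusted p = 0.0419) and the authors' series table (-0.24, adjusted p = 0.0354). Cat changed by -0.26 (adjusted p = 0.0668) in LWT mice and fell by 0.65 (adjusted p = 6.18e-05) in LKO mice, and its interaction of -0.40 (adjusted p = 0.149) was not called. Without replicate 3 of the LWT vehicle group (-0.31, adjusted p = 0.0301), replicate 4 of the LWT CL316243 group (-0.31, adjusted p = 0.0259) or replicate 1 of the LKO CL316243 group (-0.26, adjusted p = 0.0492), the LWT change in Cat was called. The same held with normexp background correction (-0.27, adjusted p = 0.0438), quantile normalization (-0.34, adjusted p = 0.0148) and the authors' series table (-0.34, adjusted p = 0.0093). Without replicate 3 of the LWT CL316243 group its interaction was called (-0.48, adjusted p = 0.0404), as were those of Pex5 (-0.54, adjusted p = 0.0292) and Acox2 (-0.67, adjusted p = 0.0336), the last also without replicate 6 of the LKO CL316243 group (-0.66, adjusted p = 0.0422).

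PPARα binds a pair of AGGTCA half-sites in a row with 1 base between, known as DR1. A stretch with at most 2 mismatches in the 12 informative bases, on either strand, was looked for in the 250 bases before the RefSeq start of the members with a promoter in the table. It was found in 1 of the 36 member promoters (2.78%) and in 1063 of all 32851 (3.24%), so the members' share was near that of all promoters. The 6 members without an entry were Amacr, Ephx2, Hsd17b4, Pex19, Pex2 and Pxmp2. The member with a match was Cat, on the minus strand at chr2:103485337-103485365 in GRCm38.p6, shown with the matching stretch in capitals.
Cat: actctcagAGGTCAGAGAACAccagcagg

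This stretch has 2 mismatches and ends 191 bases before the start of Cat. A match of letters is a description and not a shown binding site.

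Under vehicle, 7 of the 37 genes were lower in LKO than in LWT mice (18.9%, against 0.778% of all genes) and 0 were higher (against 0.398%). At an unadjusted limma p under 0.05 these counts were 13 and 1. The median difference, LKO minus LWT, was -0.09, against -0.02 over all genes. All 7 had non-overlapping groups: Eci2 at -1.30 (SE 0.10, adjusted p = 1.10e-08), Ech1 at -1.28 (SE 0.11, adjusted p = 6.49e-08), Pxmp4 at -1.26 (SE 0.16, adjusted p = 4.12e-05), Hsd17b4 at -0.89 (SE 0.08, adjusted p = 2.69e-07), Acot8 at -0.60 (SE 0.08, adjusted p = 1.43e-04), Ephx2 at -0.44 (SE 0.08, adjusted p = 0.00539) and Pex16 at -0.41 (SE 0.09, adjusted p = 0.0264). Only 1 of the 7 is a peroxin, and leaving out 1 of 7 mice took Pex16 past the threshold, at adjusted p values of 0.0588 to 0.0849. Those mice were replicates 1, 3 and 5 of the LKO vehicle group and 1, 4, 5 and 6 of the LWT vehicle group. With slide and row as a block its adjusted p was 0.0764, and with no filter on dim probes 0.0774.

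Ehhadh and Pex11a, which had the largest changes with CL316243 in LWT mice, were not called between genotypes under vehicle, at 0.29 (adjusted p = 0.592) and -0.44 (adjusted p = 0.378). Decr2 at -0.25 (adjusted p = 0.054) and Acaa1a at -0.27 (adjusted p = 0.147) were not called although their groups did not overlap. Both were called without replicate 3 of the LWT CL316243 group, at adjusted p values of 0.0168 and 0.0466, and Decr2 also without replicate 3 (0.0295) or 4 (0.0442) of the LKO CL316243 or 3 (0.0443) of the LWT vehicle group. Decr2 was also called with normexp background correction, quantile normalization, the authors' series table, the stricter filter on dim probes and only the vehicle groups in the fit, at -0.25 to -0.27 and adjusted p values of 0.00154 to 0.0429.

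Under CL316243, 22 of the 37 genes were lower in LKO than in LWT mice (59.5%, against 8.17% of all genes) and 0 were higher (against 7.74%). At an unadjusted limma p under 0.05 they were 25 and 0. The median difference was -0.63, against 0.01 over all genes, and for 18 of the 22 the 6 LKO mice were all below the 6 LWT mice. The largest was Ehhadh at -4.48 (SE 0.14, adjusted p = 2.49e-16), a level 0.0447 of that in LWT mice. Pxmp4 at -2.41, Acaa1b at -2.17, Pex11a at -2.04, Acot8 at -2.02 and Eci2 at -1.98 followed, with adjusted p values of 3.16e-08 or lower. Peroxins of membrane assembly and docking were lower by smaller amounts, with Pex16 at -1.39, Pex19 at -1.28, Pex14 at -1.05, Pex3 at -0.77 and Pex13 at -0.63. Pex2, Pex6, Pex10 and Pex26 were not called, at -0.06, -0.10, -0.35 and -0.24. The comparison shares its arrays with those above and is no separate evidence. Gnpat, at -0.17 (adjusted p = 0.0143), was not called with the authors' series table (-0.14, adjusted p = 0.074), with no filter on dim probes (adjusted p = 0.0678) or with only these groups in the fit (adjusted p = 0.0865), nor Agps, at -0.32 (adjusted p = 0.00223), with the mean of its 2 probes (-0.16, adjusted p = 0.516). Without replicate 1 of the LWT CL316243 group Pex10 was called (-0.53, adjusted p = 0.0278), and without replicate 4 Amacr was (-1.05, adjusted p = 0.00608). Cat, at -0.27 (adjusted p = 0.0939), was called without replicate 3 of the LWT CL316243 (-0.36, adjusted p = 0.0161) or 1 of the LKO CL316243 group (-0.34, adjusted p = 0.0318). Scp2, at -0.15 (adjusted p = 0.128), was called without replicate 3 of the LKO CL316243 group (-0.20, adjusted p = 0.0285).

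**Figure D4:**
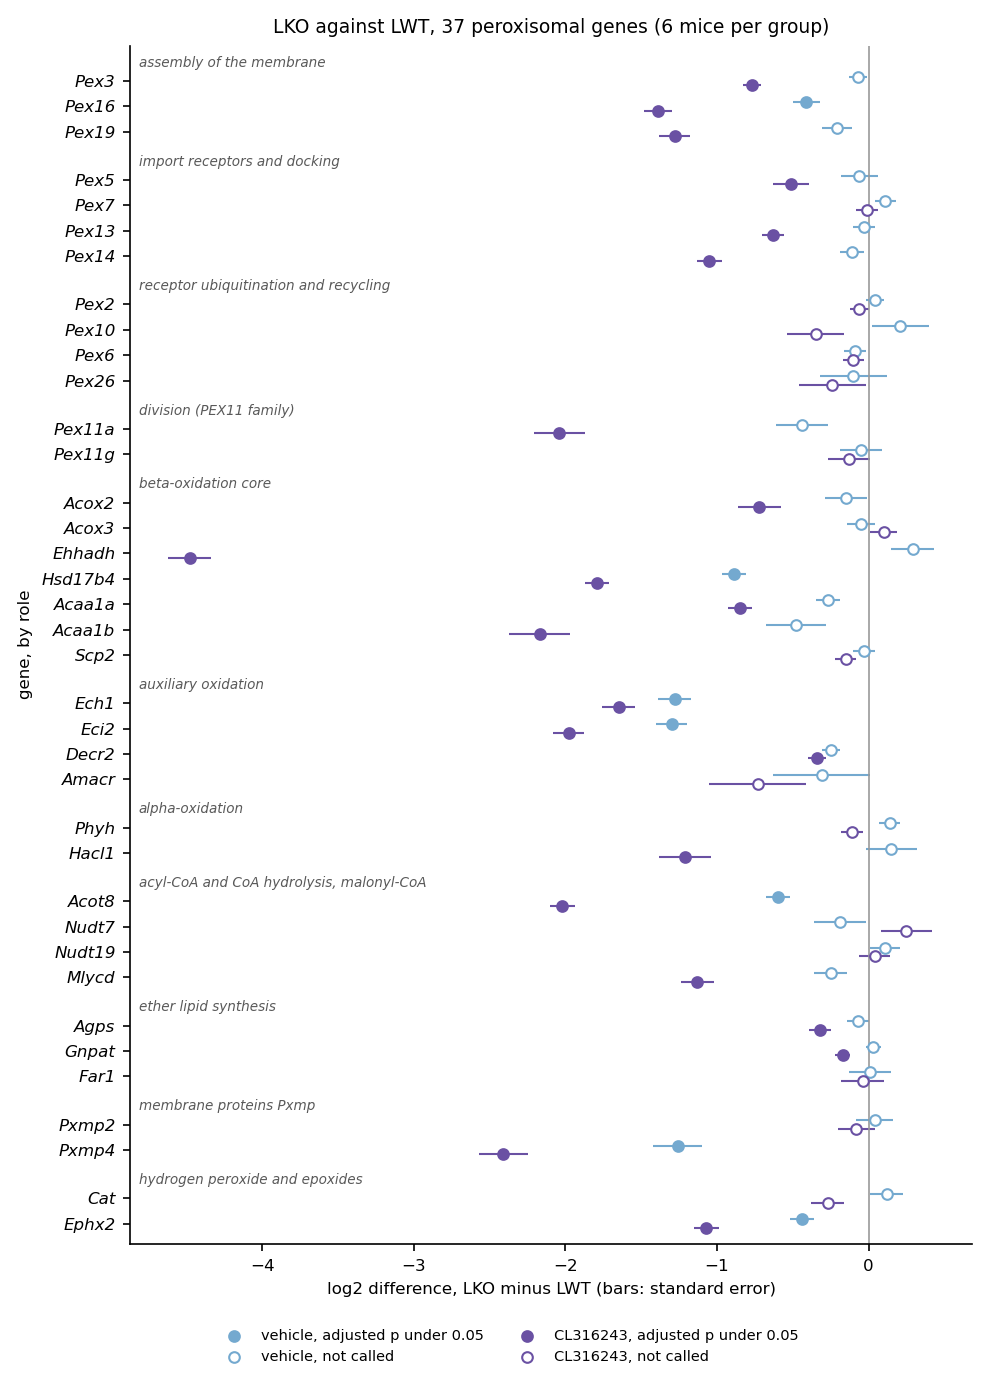
Log2 difference between genotypes (x axis, LKO minus LWT) for each of the 37 genes (y axis, ordered by role) under vehicle (light blue) and under CL316243 (purple), with standard errors from the limma fit as bars and filled points for genes called at an adjusted p under 0.05. Under vehicle 7 genes are called, all left of 0, and under CL316243 22 are called, with Ehhadh farthest left at -4.48.

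A list of 32 other peroxisomal genes, written by function with earlier results of these data known, gave 29 that passed the filter. In LWT mice 13 of the 29 rose (44.8%, against 18.9% of all genes) and 7 fell (24.1%, against 19.4%), with a median of 0.11 (0.01 over all genes). In LKO mice 4 rose (13.8%, against 20.9%) and 11 fell (37.9%, against 19.4%), with a median of -0.06 (0.03 over all genes). The share that fell in LWT mice was near the background. For the interaction 12 were called lower (41.4%, against 3.24%) and 1 higher (3.45%, against 2.17%), with a median of -0.18 (0.03 over all genes). The 12 were Crot and Crat, the carnitine acyltransferases that prepare shortened chains for export, Slc27a2, a very long chain acyl-CoA synthetase, Dhrs4, Eci3, Hsdl2, the thioesterases Acot3, Acot4, Acot5 and Acot6, the protease Lonp2 and the isocitrate dehydrogenase Idh1.

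The thioesterases Acot5 and Acot3 had the largest changes of this list in LWT mice, 5.23 (adjusted p = 3.25e-11) and 3.85 (adjusted p = 6.52e-07), against -0.19 (adjusted p = 0.642) and -1.50 (adjusted p = 0.00939) in LKO mice. Acot3 to Acot6 are close copies, as are Eci2 and Eci3, so probes may read more than 1 of them. The deepest falls in LWT mice were in Ddo, a D-aspartate oxidase, at -1.45 (adjusted p = 4.04e-04), and Paox, a polyamine oxidase, at -0.86 (adjusted p = 2.40e-04), and both also fell in LKO mice, by 1.28 (adjusted p = 0.0013) and by 1.03 (adjusted p = 3.73e-05). Hao1, the glycolate oxidase, had the 1 positive interaction, 0.57 (adjusted p = 0.0299). Under vehicle 3 of the 29 were lower in LKO than in LWT mice (10.3%, against 0.778% of all genes) and 2 higher (6.90%, against 0.398%). Those higher were Acot5 at 1.59 (adjusted p = 0.00494) and Acot6 at 1.34 (adjusted p = 0.00689). Under CL316243 14 were lower (48.3%, against 8.17%) and 2 higher (6.90%, against 7.74%). Acot6, whose interaction was called lower, was not called there (-0.00, adjusted p = 0.994).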

How the data were processed

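Liver RNA of 24 mice was hybridised to 24 single-colour Agilent arrays, 200 ng of RNA each, on 3 slides of 8. The deposited scanner tables hold intensities per spot, from which the authors' scanner software, Agilent Feature Extraction 10.10.1.1 by the file headers, had already subtracted background. The deposited series table holds log2 values. Set against the scanner tables, they equal quantile-normalized log2 median signals within 0.01 for 99.3% of 31367 probes, so the scale is known, and this table served as an alternative. The submitters' processing notes also name limma.

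Processed intensities were used. Spots marked as outliers were dropped, spots of a probe averaged, log2 taken and each array's 75th percentile subtracted. Probes were kept when 4 or more of the 6 arrays of any group read well above background and every group had 3 or more values (32037 probes, 60 missing values, dropped by the fit). The brightest kept probe represented a gene. One mean per group was fitted with limma 3.58.1 in R 4.3.3 over all 24 arrays (data.table, version 1.17.8; figures with matplotlib 3.10.9 in Python 3.11.15), and p-values were adjusted by Benjamini-Hochberg within each of 5 comparisons. The pipeline was tested on simulated data. The number of arrays limits the precision.

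Full values are given for members called for the interaction, under vehicle between genotypes, or in opposite directions, and for the largest change in LWT mice in each role. Named of the other peroxisomal genes are those called for the interaction and the 2 highest and 2 lowest called changes in LWT mice. Marker lists covered hepatocytes, Kupffer cells, neutrophils, lymphocytes, liver endothelium, stellate cells and fibroblasts, cholangiocytes and adipocytes. The members and lists were chosen with earlier results of these data known. Alternatives were normexp background correction (offset 50), quantile and median scaling, the series table, no or a stricter filter on dim probes, averaged probes, slide, slide and row, or replicate number as a block, only the groups compared, a 1.5-fold minimum, and leaving out each mouse. Promoters are those of RefSeq on GRCm38.p6, matched by symbol for 31 of 37 members.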

Additional observations from a re-analysis of the deposited data

Results flagged for a closer look

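For 16 of the 37 genes the effect of CL316243 differed between genotypes in the test of the difference itself (LKO minus LWT, limma, adjusted p under 0.05). The differences in log2 change were -4.77 for Ehhadh, -1.69 for Acaa1b, -1.59 for Pex11a, -1.42 for Acot8, -1.36 for Hacl1, -1.14 for Pxmp4, -1.06 for Pex19, -0.98 for Pex16, -0.94 for Pex14, -0.90 for Hsd17b4, -0.89 for Mlycd, -0.70 for Pex3, -0.68 for Eci2, -0.64 for Ephx2, -0.61 for Pex13 and -0.58 for Acaa1a.

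In 7 of 148 sets of 6 levels (37 genes in 4 groups) 1 mouse stood apart from the other 5, by a gap wider than Dixon's limit for the group's range. Chance flags about 1 in 20 groups, and 7 of 148 is near that rate. The flags therefore only describe these mice. Replicate 3 of the LWT CL316243 group was low for Acox3 (0.93, the next mouse at 1.14), Decr2 (6.95, next at 7.22) and Pxmp2 (5.83, next at 6.40). Replicate 3 of the LKO CL316243 group was low for Pxmp4 (2.08, next at 2.85), and replicate 3 of the LWT vehicle group was low for Cat (6.76, next at 7.05). Replicate 6 was high for Pex14 in the LWT vehicle group (2.02, next at 1.70) and for Gnpat in the LKO vehicle group (3.32, next at 3.17).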

How the results depend on the processing

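The called interaction was kept for all 16 genes when any 1 mouse was left out and under the alternatives run, except Pxmp4 with the mean of its probes and Acaa1a with a 1.5-fold minimum added (15 genes called). Over the left-out mice the counts were 17 to 20 higher and 6 to 8 lower in LWT mice, 4 to 6 higher and 18 to 20 lower in LKO mice, 16 to 19 lower for the interaction, 6 to 9 lower under vehicle and 22 to 23 lower under CL316243. The count of genes lower in LWT mice, 7, was 4 with all probes of a gene averaged and 0 with the 1.5-fold minimum. That minimum also left 2 of 4 genes higher and 6 of 18 lower in LKO mice, since most of these changes are small. Acox3 reversed in LKO mice with averaged probes, to 0.15. Gene and setting pairs numbered 407 for each comparison of 2 groups and 370 for the interaction. Those that kept their side of the threshold, and where called their direction, were 384 in LWT and 391 in LKO mice. They were 365 for the interaction, 399 under vehicle and 402 under CL316243. Changes that were not called and whose sign differed were counted among them. With no filter on dim probes the median of all genes moved to 0.11 in LWT and 0.10 in LKO mice, and it stayed within 0.05 of 0 under the other scalings. Slide and row as a block was added after seeing the data and ended the calls of Pex10 in LWT mice and Pex16 under vehicle. The groups share replicate numbers, and 8 of 36 same-numbered pairs of mice correlated above 0.1 (r from -0.18 to 0.42). Pairs of unlike number were not compared, so this does not show whether the mice are paired by number. The main fit treated them as unpaired. Of the 6 pairs between both CL316243 groups, 3 correlated at 0.25 to 0.42. With the replicate block, Decr2 was no longer called in LWT mice (0.17, adjusted p = 0.0503), while the interactions of Pex5 (-0.45, adjusted p = 0.0274) and Cat (-0.40, adjusted p = 0.0437) were called. Also called with it were Cat in LWT mice (-0.26, adjusted p = 0.0158) and between genotypes under CL316243 (-0.27, adjusted p = 0.0239), Acaa1a in LKO mice (-0.15, adjusted p = 0.0496) and between genotypes under vehicle (-0.27, adjusted p = 0.0302), and Ech1 in LKO mice (0.22, adjusted p = 0.0293). The block changed no other call of a member.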
